A study of Mus musculus with 32 samples.

Results

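The striatum is the input station of the basal ganglia, and medium spiny neurons, which release GABA, are its main cell type. A direct-pathway class carries the D1 dopamine receptor and substance P, and an indirect-pathway class carries the D2 dopamine receptor, enkephalin, an adenosine receptor (Adora2a) and the orphan receptor Gpr6. In both classes dopamine acts through cyclic AMP, the phosphatase inhibitor DARPP-32, the phosphodiesterase PDE10A and the G protein regulator RGS9. The genes named for this pathway here were Drd1 and Tac1 (direct), Drd2, Penk, Adora2a and Gpr6 (indirect), and Ppp1r1b, Rgs9 and Pde10a (both). They were chosen by their measured values: several had been seen to be lower at day 28 than at day 21 in brains that received BAL17 cells. Of the 9 named genes, 8 had a probe set with a single gene symbol, among 19938 genes so represented; Adora2a is not listed in the probe table and is not analysed here.

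The arrays measured RNA of whole brains of wild-type BALB/c mice and of the cells implanted into them. BAL17 is a mouse B cell lymphoma line and BAL17VII is labelled as a line derived from it. The 20 brains form 4 groups of 5, each numbered 1 to 5: PBS-injected controls at day 28, brains 21 days and 28 days after 500000 BAL17 cells, and brains 21 days after 500000 BAL17VII cells. The 12 arrays of cultured cells are 6 of each line. There was no PBS group at day 21, so time after injection and the presence of BAL17 cells cannot be told apart between day 21 brains and PBS brains. The labels do not say that numbered samples are separate animals, so p-values measure the spread between these samples. They call the tissue whole brain and give frozen sections as the source of the RNA, and which brain regions the sections held is not stated.

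All values are log2 of the deposited array intensity, and levels of different genes are not comparable on this scale. Array medians on the linear scale ran from 81.7 to 93.0. A list of 11 B cell and proliferation genes averaged 5.53 to 5.95 in PBS brains, 7.99 to 8.53 in BAL17 brains at day 21, 8.19 to 8.49 in BAL17 brains at day 28 and 7.40 to 8.13 in BAL17VII brains 2 to 5. BAL17VII brain 1 averaged 5.69 on that list, inside the PBS range, so the main comparisons of the 8 genes with this group are also given without it. Counts of other gene lists hold it unless stated. In PBS brain 4 and BAL17VII brain 4 each of the 8 medium spiny neuron genes was at its group's lowest value. Comparisons of the 8 genes that hold these brains are therefore also given without them.

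RefSeq promoter sequences, 250 bases before the transcription start on assembly GRCm38.p6, were matched for 6 of the 9 genes, which have 8 starts in all. The letters TGACG, the core of the cyclic AMP response element, were searched on both strands because cyclic AMP is the messenger that dopamine sets in these neurons. They occurred in 2 of the 8 promoters, those of Tac1 and Gpr6, and in 17.8% of 32851 promoters of the same length. Both are shown 5′ to 3′ on the gene's own strand, with the matches in capitals (CGTCA is the same motif on the other strand).
Tac1, chr6:7554811-7555060, plus strand: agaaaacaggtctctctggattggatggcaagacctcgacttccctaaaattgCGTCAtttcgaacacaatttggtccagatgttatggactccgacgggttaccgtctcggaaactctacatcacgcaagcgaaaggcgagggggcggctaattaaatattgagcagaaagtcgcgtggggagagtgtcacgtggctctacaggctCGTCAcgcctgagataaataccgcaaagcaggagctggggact
Gpr6, chr10:41072291-41072540, minus strand: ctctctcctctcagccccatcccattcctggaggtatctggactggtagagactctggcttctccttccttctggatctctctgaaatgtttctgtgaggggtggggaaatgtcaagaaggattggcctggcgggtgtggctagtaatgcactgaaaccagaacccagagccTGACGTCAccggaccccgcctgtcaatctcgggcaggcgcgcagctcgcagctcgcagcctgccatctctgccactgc
In Tac1 the matches ended 193 and 39 bases before the start, both on the opposite strand. In Gpr6 a match on each strand overlapped to give the full palindrome TGACGTCA, whose first base lay 78 bases before the start. The letters GGGCGG, a GC box, occurred in 5 of the 8 promoters and in 32.7% of all. A match describes these reference letters and does not show that a factor binds there.

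The 8 genes shared 1 pattern across the brains. BAL17 brains at day 28 had the lowest group mean of every one of them, while PBS brains, BAL17 brains at day 21 and BAL17VII brains at day 21 had means whose neighbours in order lay within their spread. In the plot of values by brain the day 28 points sit at the bottom of each panel, with brain 4 of the PBS group reaching down to them in all 8 panels and brain 4 of the BAL17VII group in 7, all but Drd1.

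**Figure D1:**
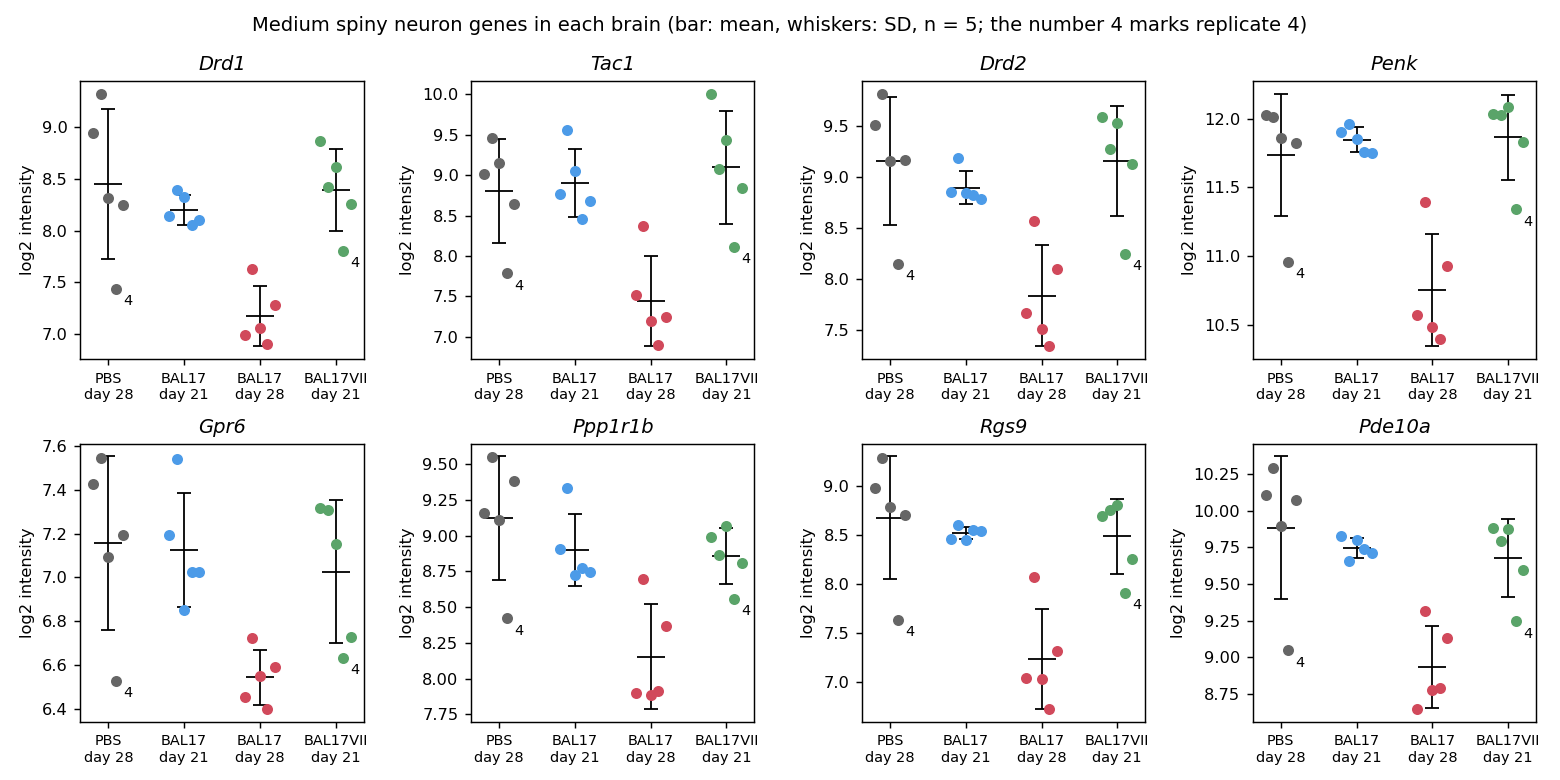
Log2 intensity of each gene (vertical axis, a separate scale per panel) in each of the 20 brains, by group; points are single brains, the bar is the mean and the whiskers are the SD of 5 brains. BAL17 brains at day 28 (red) lie below all 5 BAL17 brains at day 21 (blue) for each of the 8 genes, and the number 4 marks replicate 4 of the PBS and BAL17VII groups, the lowest point of its group in each panel.

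Drd1 encodes the D1 receptor, through which dopamine raises cyclic AMP in direct-pathway neurons. In PBS brains 1 to 5 it stood at 8.94, 9.32, 8.31, 7.44 and 8.25, and in BAL17 brains at day 21 at 8.14, 8.39, 8.32, 8.06 and 8.10. At day 28 the BAL17 brains read 7.00, 7.63, 7.06, 6.90 and 7.28, and the BAL17VII brains read 8.87, 8.42, 8.61, 7.81 and 8.25. All 5 day 28 values lay below all 5 day 21 values, and overlapped the PBS range through PBS brain 4 alone. Day 28 differed from day 21 by -1.03 ± 0.25 (SE from limma, n = 5 per group), a level 2.04-fold lower.

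Tac1 encodes the precursor of substance P, the peptide of direct-pathway neurons. Its PBS values were 9.02, 9.46, 9.15, 7.79 and 8.64, and its day 21 values in BAL17 brains were 8.77, 9.56, 9.05, 8.45 and 8.68. The day 28 values were 7.52, 8.37, 7.20, 6.90 and 7.24, and those of BAL17VII brains 10.01, 9.08, 9.44, 8.11 and 8.84. Day 28 brain 2, the highest of its group, was just under the lowest day 21 brain, and the groups did not overlap. Tac1 had the largest difference of the 8 genes between day 28 and day 21, -1.46 ± 0.33, or 2.75-fold lower.

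Drd2 encodes the D2 receptor, which lowers cyclic AMP in indirect-pathway neurons. It measured 9.50, 9.81, 9.15, 8.14 and 9.16 in PBS brains and 8.85, 9.18, 8.84, 8.82 and 8.78 in BAL17 brains at day 21. At day 28 it measured 7.67, 8.57, 7.50, 7.34 and 8.09, against 9.59, 9.27, 9.53, 8.24 and 9.13 in BAL17VII brains. The day 21 brains were close together and all above the day 28 brains. The difference between the days was -1.06 ± 0.27, or 2.08-fold lower at day 28.

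Penk encodes proenkephalin, the source of the enkephalin peptides of indirect-pathway neurons. PBS brains gave 12.03, 12.01, 11.86, 10.96 and 11.82, and day 21 BAL17 brains gave 11.90, 11.96, 11.85, 11.76 and 11.75. Day 28 brains gave 10.57, 11.40, 10.48, 10.40 and 10.93, and BAL17VII brains gave 12.04, 12.03, 12.09, 11.34 and 11.83. PBS brain 4 stood apart from the other 4 PBS brains, inside the day 28 range, and the 5 day 21 brains were all above the day 28 brains. Day 28 lay -1.09 ± 0.19 from day 21, a 2.13-fold lower level.

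Gpr6 encodes a constitutively active receptor of indirect-pathway neurons that raises cyclic AMP. Levels in PBS brains were 7.43, 7.54, 7.09, 6.53 and 7.19, and in day 21 BAL17 brains 7.19, 7.54, 6.85, 7.02 and 7.03. Levels at day 28 were 6.46, 6.73, 6.55, 6.40 and 6.59, and in BAL17VII brains 7.32, 7.31, 7.15, 6.63 and 6.73. The groups of day 28 and day 21 did not overlap, though the closest brains were near each other. Gpr6 had the smallest difference of the 8 genes, -0.58 ± 0.17, or 1.50-fold lower at day 28.

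Ppp1r1b encodes DARPP-32, which inhibits protein phosphatase 1 once protein kinase A has phosphorylated it. Its values were 9.16, 9.55, 9.11, 8.42 and 9.38 in PBS brains and 8.91, 9.34, 8.73, 8.78 and 8.75 in day 21 BAL17 brains. They were 7.90, 8.70, 7.89, 7.91 and 8.37 at day 28 and 8.99, 8.87, 9.07, 8.56 and 8.81 in BAL17VII brains. Day 28 brain 2 was just under the lowest day 21 brain, and the other 4 day 28 brains were further below. The difference between the days was -0.75 ± 0.18, or 1.68-fold lower.

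Rgs9 encodes a regulator that shortens G protein signals downstream of the D2 receptor. It read 8.98, 9.29, 8.79, 7.64 and 8.71 in PBS brains and 8.46, 8.60, 8.45, 8.55 and 8.54 in day 21 BAL17 brains. It read 7.04, 8.07, 7.03, 6.72 and 7.31 at day 28 and 8.70, 8.76, 8.81, 7.91 and 8.26 in BAL17VII brains. The day 21 brains had an SD of 0.06, the smallest of any gene and group here, and the highest day 28 brain, brain 2, was still below all of them. The difference between the days was -1.29 ± 0.25, or 2.44-fold lower.

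Pde10a encodes the phosphodiesterase that breaks down cyclic AMP and cyclic GMP in both classes. PBS brains stood at 10.11, 10.29, 9.89, 9.05 and 10.07, and day 21 BAL17 brains at 9.83, 9.66, 9.80, 9.74 and 9.71. Day 28 brains stood at 8.65, 9.31, 8.77, 8.79 and 9.13, and BAL17VII brains at 9.88, 9.79, 9.87, 9.25 and 9.60. The day 28 and day 21 groups again did not overlap. Pde10a was lower at day 28 by a difference of -0.82 ± 0.18, or 1.76-fold.

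The day 28 against day 21 difference chose the genes, so its values are a description with no test. The 8 genes had non-overlapping groups with day 28 lower, as had 1.73% of the 10540 genes tested. Their median difference was -1.04, and the median over all genes tested was 0.01. In whole-brain RNA, fewer cells of a type and less RNA per cell cannot be told apart.

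Against PBS brains, the day 28 differences were -1.28 ± 0.25 for Drd1, -1.37 ± 0.33 for Tac1, -1.32 ± 0.27 for Drd2 and -0.98 ± 0.19 for Penk. They were -0.61 ± 0.17 for Gpr6, -0.97 ± 0.18 for Ppp1r1b, -1.45 ± 0.25 for Rgs9 and -0.95 ± 0.18 for Pde10a, and the median of the 8 was -1.13 beside -0.11 over all genes tested. No gene of the 8 had non-overlapping groups, where 16.9% of all genes did with day 28 lower, because PBS brain 4 reached into the day 28 range. Without PBS brain 4, each of the 8 was lower in all 5 day 28 brains than in the 4 other PBS brains, as were 21.8% of all genes. The differences were then -1.53 for Drd1, -1.62 for Tac1, -1.57 for Drd2, -1.18 for Penk, -0.77 for Gpr6, -1.15 for Ppp1r1b, -1.71 for Rgs9 and -1.16 for Pde10a. These contrasts hold the day 28 brains that entered the choice of genes and carry no test.

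BAL17 brains at day 21 stood near PBS brains for the 8 genes. The differences ran from -0.26 (Drd2) to 0.11 (Penk) with a median of -0.15, which was 0.01 after quantile normalization and -0.37 without PBS brain 4. The median over all genes tested was -0.13, and 48.5% of genes were called different in either direction. Both BAL17 time points were compared with the same PBS brains, so the values of the 2 comparisons are given side by side and not correlated. For Drd1, for example, day 21 differed from PBS by -0.25 and day 28 by -1.28.

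**Figure D2:**
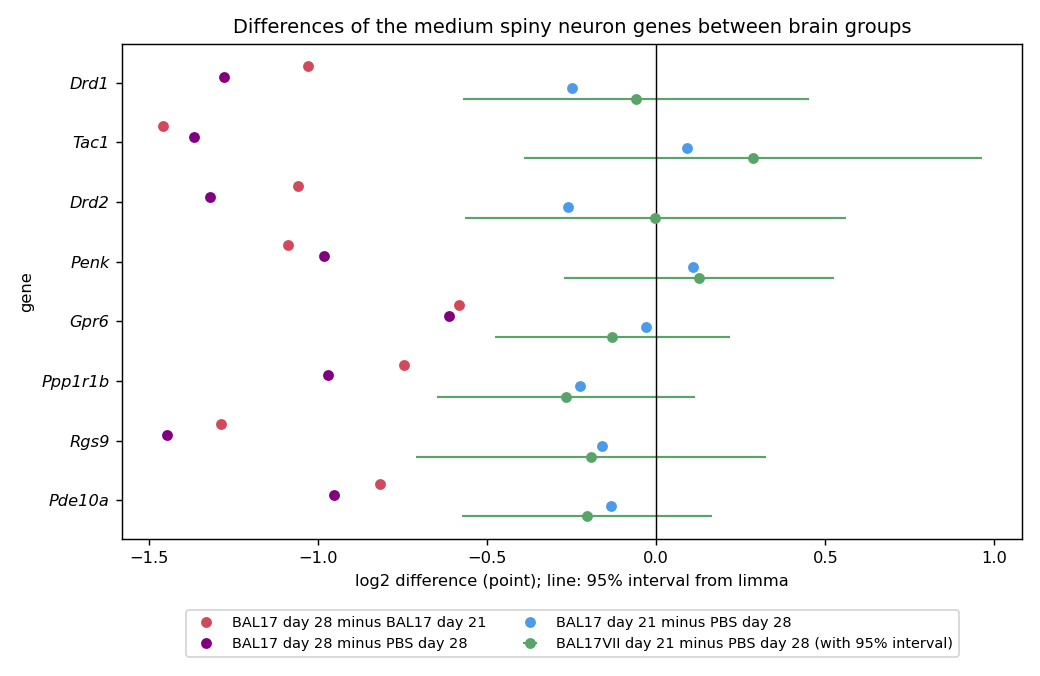
Log2 difference of each gene (points) in 4 comparisons of brain groups, 5 brains each, with limma's 95% interval (lines) for BAL17VII against PBS, the comparison that was tested. The differences that involve day 28 (red and purple) lie from -1.46 to -0.58, while those of BAL17 day 21 (blue) and BAL17VII day 21 (green) against PBS lie between -0.27 and 0.28.

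BAL17VII brains at day 21 against PBS brains gave a comparison in which no array had entered the choice of genes, and here the 8 genes were tested. None was called by limma at an adjusted p under 0.05, and none had an unadjusted p under 0.05, where 5.51% of the 10540 genes were called. The largest differences were 0.28 for Tac1 (95% interval -0.39 to 0.96, adjusted p = 0.663 by limma) and -0.27 for Ppp1r1b (-0.65 to 0.12, adjusted p = 0.423). Pde10a differed by -0.20 (-0.57 to 0.16, adjusted p = 0.545) and Rgs9 by -0.19 (-0.71 to 0.33, adjusted p = 0.706). Drd2 differed by -0.0027 (-0.57 to 0.56, adjusted p = 0.996) and Drd1 by -0.06 (-0.57 to 0.45, adjusted p = 0.917). Penk differed by 0.13 (-0.27 to 0.53, adjusted p = 0.755) and Gpr6 by -0.13 (-0.48 to 0.22, adjusted p = 0.705). These intervals do not show that the levels were equal. Their SE came from the spread of all 20 brains, including the BAL17 brains that chose the genes. The SD had a median over the 8 genes of 0.56 in PBS and 0.36 in BAL17VII brains, but 0.15 in BAL17 day 21 brains. The intervals may therefore be too narrow where PBS and BAL17VII brains spread more. With the 2 groups alone the smallest adjusted p of the 8 by limma was 0.428, for Ppp1r1b. The median of the 8 differences was -0.09. It was -0.19 without BAL17VII brain 1, -0.30 without PBS brain 4 and -0.18 without both brains numbered 4, and it turned to 0.03 without BAL17VII brain 4, 0.06 without PBS brain 2 and 0.00051 without PBS brain 1. Over the 20 alternatives the smallest adjusted p of the 8 by limma ran from 0.0946, for Pde10a without PBS brain 4, to 0.628, and none of the 8 was called.

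BAL17VII and BAL17 brains of the same day differed in the 8 genes by -0.10 (Gpr6) to 0.26 (Drd2) with a median of -0.01, while all 8 were lower in BAL17VII brains when measured against the mean of 12 pan-neuron genes (median -0.39) or of 12 oligodendrocyte and astrocyte genes (median -0.64). Against the median of all genes tested the median was -0.11, and Drd1, Drd2 and Tac1 were higher in BAL17VII brains. These values are described with no test because the BAL17 brains had entered the choice. The unscaled median was -0.05 without BAL17VII brain 1, and it turned to 0.13 without BAL17VII brain 4, 0.03 without BAL17VII brain 5 and 0.06 without BAL17 brain 2. Over all genes the median was 0.09, and 27% of genes were called between these groups, 19.8% higher and 7.18% lower in BAL17VII brains. Of the reference lists, 8 of 12 pan-neuron and 8 of 9 oligodendrocyte genes were called higher in BAL17VII brains, and 8 of the 11 genes of the B cell list lower. These counts and the medians measured against other genes hold BAL17VII brain 1 and were not run without it. That brain had the highest pan-neuron mean (10.74) and oligodendrocyte mean (9.97) of its group. The part of neurons, oligodendrocytes and lymphoma cells in the comparison was not tested.

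Spread among brains was shared by the 8 genes. PBS brain 4 and BAL17VII brain 4 were lowest of their groups in 8 of 8 genes, day 28 brain 4 in 6 of 8. Day 28 brain 2 was highest in 8 of 8, and PBS brain 2 and day 21 BAL17 brain 2 each in 7 of 8. The mean of the 8 genes was 8.24 in PBS brain 4 and 9.15 to 9.66 in the other PBS brains, and 8.60 in day 28 brain 2 and 7.67 to 8.12 in the other day 28 brains. The SD over 5 brains had a median over the 8 genes of 0.56 in PBS, 0.15 in BAL17 day 21, 0.39 in BAL17 day 28 and 0.36 in BAL17VII day 21 brains.

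After each gene was centred on its group means, the 28 pairs of the 8 genes had Pearson r from 0.74 (Tac1 with Pde10a) to 0.96 (Penk with Rgs9), with a median of 0.86 over the 20 brains. These are descriptions over arrays that share tissue and processing. On the same centred scale the mean of the 8 genes had r = 0.97 with the mean of 31 other medium spiny neuron genes, 0.85 with 12 striatal interneuron genes and 0.78 with 10 thalamic genes. Of the 12 interneuron genes, 7 had means below the array median in each brain group, and Pvalb is also on the cerebellar list. The mean of the 8 genes had r = 0.46 with 12 pan-neuron genes, -0.48 with 11 cortical genes, -0.48 with 11 cerebellar genes and -0.16 with the B cell list. PBS brain 4 showed the same division. Its thalamic mean of 7.92 was the lowest of the PBS brains, which otherwise lay from 8.21 to 8.64. Its cortical mean of 8.13 and its pan-neuron mean of 10.58 lay inside the ranges of the other 4. The part of brain region in this spread was not tested.

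**Figure D3:**
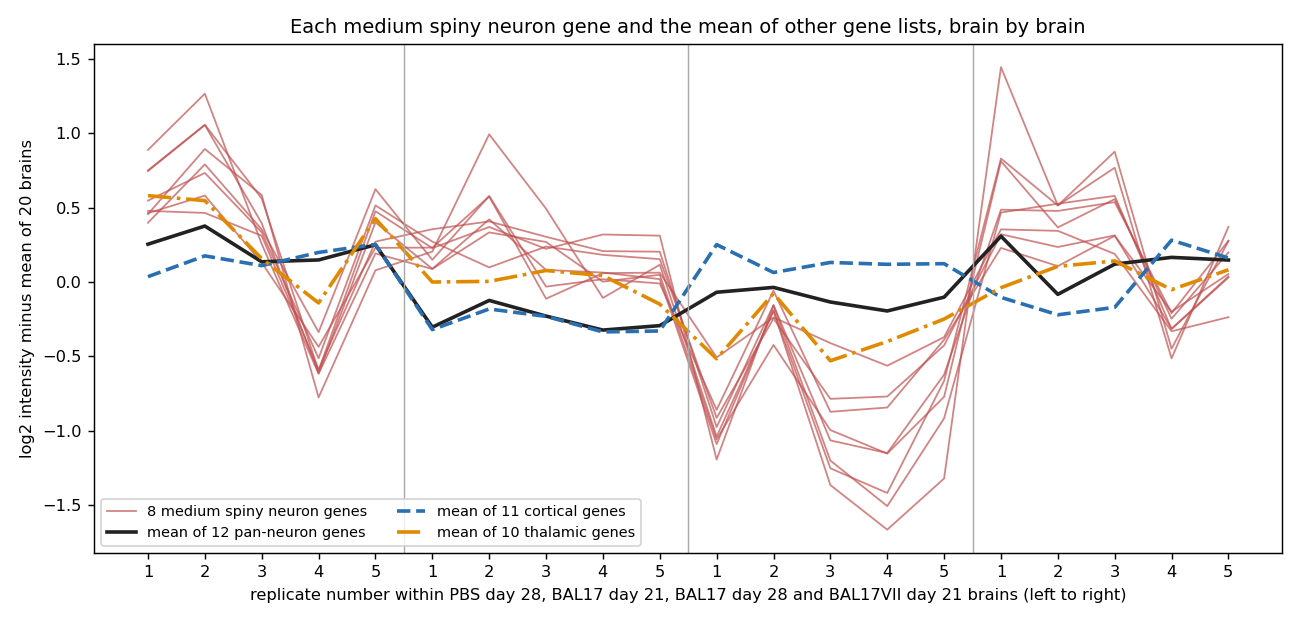
Log2 intensity of each of the 8 genes (thin lines) and the mean of 12 pan-neuron, 11 cortical and 10 thalamic genes, brain by brain within the 4 groups, each minus its mean over 20 brains. The 8 genes move together, lowest in BAL17 brains at day 28 and low in brain 4 of the PBS and BAL17VII groups, where the cortical mean is not low.

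The other genes of medium spiny neurons came as a list of 31 measured genes, 26 of them above the filter on low values. Against PBS brains, 18 of the 26 fell at day 28 and none rose, with a median difference of -0.56, where limma called 24.1% of all genes lower and 9.15% higher. Striatin (Strn), a calmodulin-binding scaffold named for the striatum, fell by 0.69 ± 0.09 (adjusted p = 1.77e-05 by limma). Adcy5, the main striatal adenylyl cyclase, fell by 0.95 ± 0.17 (adjusted p = 0.000345), and Gnal, the G protein alpha subunit that couples the D1 receptor to it, fell by 0.64 ± 0.13 (adjusted p = 0.000908). Actn2, an actin cross-linker, fell by 0.80 ± 0.14 (adjusted p = 0.000273), and Kcnab1, a potassium channel subunit, by 0.60 ± 0.10 (adjusted p = 0.000101). The transcription factors Bcl11b and Foxp1 differed by -0.07 and 0.03 and the muscarinic receptor Chrm4 by 0.05, none called. The cultured lines read Foxp1 at 9.03 to 9.48, above every brain (7.91 to 8.67). Brain values of Bcl11b (6.70 to 7.32) and Chrm4 (6.49 to 7.09) overlapped the lines (6.29 to 6.89 and 6.33 to 7.04). These 3 genes therefore say little about striatal levels here. Leaving out 1 brain at a time gave 15 to 19 called genes of this list. In the same comparison all 10 thalamic genes fell (median -0.70), as did all 9 oligodendrocyte genes (median -0.72), and the difference between these lists and the 26 genes was not tested.

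Between day 28 and day 21, 2 of the 26 fell and none rose, where limma called 1.76% of all genes in either direction. They were Actn2, by 0.70 ± 0.14 (adjusted p = 0.0137 by limma), and Pde1b, a calmodulin-dependent phosphodiesterase, by 0.61 ± 0.16 (adjusted p = 0.0443). The difference between these same arrays chose the 8 genes. Over the 20 brains, Actn2 and Pde1b had r = 0.94 and 0.98 with the mean of the 8. Their p-values are therefore no independent support. The median of the 26 was -0.34, and 12 had non-overlapping groups with day 28 lower, as had 1.73% of all genes. The count rested on single brains: it was 0 without day 28 brain 1, and 1 without day 28 brain 3, 4 or 5 or without any 1 of the day 21 brains. It was 9 when the 2 groups alone were fitted, and 10 without PBS brain 4 and BAL17VII brain 4, a choice made after seeing the data. Gng7, a striatal G protein gamma subunit, differed by -0.64 ± 0.18 (adjusted p = 0.0641 by limma), Adcy5 by -0.48 and Gnal by -0.36, none called. Bcl11b, whose brain values overlapped those of the cultured lines, differed by 0.00. Day 28 values of Actn2, Pde1b and Gng7 overlapped the lines too. Pde1b read 7.95 to 8.37 at day 28 and 8.21 to 8.55 in the lines, and Gng7 7.02 to 7.65 and 6.49 to 7.31.

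At day 21, 7 of the 26 genes were lower in BAL17 than in PBS brains and none higher, where 35.4% of all genes were called lower. The 3 with the smallest adjusted p by limma were Arpp21, a phosphoprotein regulated by cyclic AMP, at -0.38 ± 0.08 (adjusted p = 0.00042), the cannabinoid receptor Cnr1 at -0.64 ± 0.13 (adjusted p = 0.000587) and Kcnab1 at -0.45 ± 0.10 (adjusted p = 0.000691). The count was 4 without BAL17 brain 1, BAL17 brain 4 or PBS brain 2, and 12 without PBS brain 4. In BAL17VII brains, 2 of the 26 were lower than in PBS brains, where 1.88% of all genes were, Cnr1 at -0.48 (adjusted p = 0.0398 by limma) and Arpp21 at -0.27 (adjusted p = 0.0406). Neither was called without BAL17VII brain 1, 2 or 3, or without PBS brain 1, 3 or 5, without PBS brain 2 Cnr1 alone of the pair was, and without PBS brain 4 Arpp21 alone of the pair was.

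Prodynorphin (Pdyn), the opioid peptide of direct-pathway neurons, did not pass the filter, with group means of 6.45 to 6.56. Neither did Chat, the acetylcholine-synthesizing enzyme of striatal interneurons, with means of 4.78 to 4.91. Of the striatal interneuron list, 5 of 12 genes passed: Sst, Npy, Nos1, Pvalb (also on the cerebellar list) and Kit. No cholinergic gene of the list was among them. Slc5a7, a cholinergic gene below the filter, ran from 5.97 to 6.38 in BAL17 brains at day 21 and from 5.15 to 6.18 at day 28, and was not tested. Of the 5, none was called between day 28 and day 21 (median 0.29), where 1.76% of all genes were. Against PBS, 1 of the 5 fell at day 28, where 24.1% of all genes did. At day 21 in BAL17 brains 4 were lower than in PBS, where 35.4% of all genes were.

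Enzymes and receptors for the peptides came as a list of 15 genes, 11 of them tested. Mme (neprilysin), which degrades enkephalins and substance P, fell by 0.87 ± 0.19 from day 21 to day 28 (adjusted p = 0.0209 by limma) and by 0.90 ± 0.19 against PBS (adjusted p = 0.00154). Mme was the 1 gene of the 11 called between the days, where 1.76% of all genes were. Its r with the mean of the 8 genes was 0.97 over the 20 brains. The arrays of the 2 days chose those 8, so this call is no independent support. Pcsk1n and Pam, which act in peptide processing, fell by 0.30 and 0.21 at day 28 against PBS. In that comparison 3 of the 11 were called lower, where 24.1% of all genes were. At day 21 in BAL17 brains 5 of the 11 were lower than in PBS, where 35.4% of all genes were, Pam by -0.46. The list of partners in dopamine, adenosine and cyclic nucleotide signalling had 15 genes tested of 18. None of the 15 was called between day 28 and day 21 (median 0.09), where 1.76% of all genes were. Against PBS, 10 of the 15 were lower at day 28 (median -0.27) and 10 at day 21 (median -0.32), beside the same 24.1% and 35.4% of all genes, among them Rgs7bp, which anchors RGS9-type regulators, by -0.33 and -0.57. In BAL17VII brains against PBS, brain 1 included, none of the 15 was called, where 5.51% of all genes were.

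Other brain genes set the scale for these differences. Of 12 pan-neuron genes, 9 fell at day 28 and 10 were lower at day 21 against PBS (medians -0.40 and -0.46), beside 24.1% and 35.4% of all genes. None of the 12 was called between day 28 and day 21 (median 0.18), where 1.76% of all genes were. Measured against the mean of the 12 pan-neuron genes in the same brain, the 8 medium spiny neuron genes had a median difference of -1.19 from day 21 to day 28. It was -0.79 at day 28 against PBS, 0.34 at day 21 against PBS and 0.0068 in BAL17VII brains against PBS. Against 12 oligodendrocyte and astrocyte genes these medians were -1.18, -0.56, 0.56 and -0.02. Against the median of all genes tested they were -1.06, -1.02, -0.01 and -0.06. The small negative median of BAL17 brains at day 21 thus turned positive against the 2 cell-type references and stayed slightly negative against all genes. The reference lists were themselves lower in that comparison, with medians of -0.46 (pan-neuron), -0.67 (oligodendrocyte) and -0.44 (astrocyte).

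Regional lists also held genes called between day 28 and day 21, where 1.76% of all genes were. Of 10 thalamic genes, 3 fell: Prkcd by 1.14 ± 0.22 (adjusted p = 0.0116 by limma), Ntng1 by 0.73 and Synpo2 by 0.70. Of 10 cortical genes, 3 rose: Neurod6 by 1.10 ± 0.21 (adjusted p = 0.0108), Tbr1 by 0.72 and Rasgrf2 by 0.47. No gene of 11 cerebellar genes was called, with a median of 0.51, and none of the 11 genes of the B cell list, with a median of -0.09. The mean of the B cell list was 8.29 ± 0.21 at day 21 and 8.30 ± 0.11 at day 28 (SD, n = 5), a difference below either SD. Whether sections of the 2 days held the same brain regions was not tested.

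**Figure D4:**
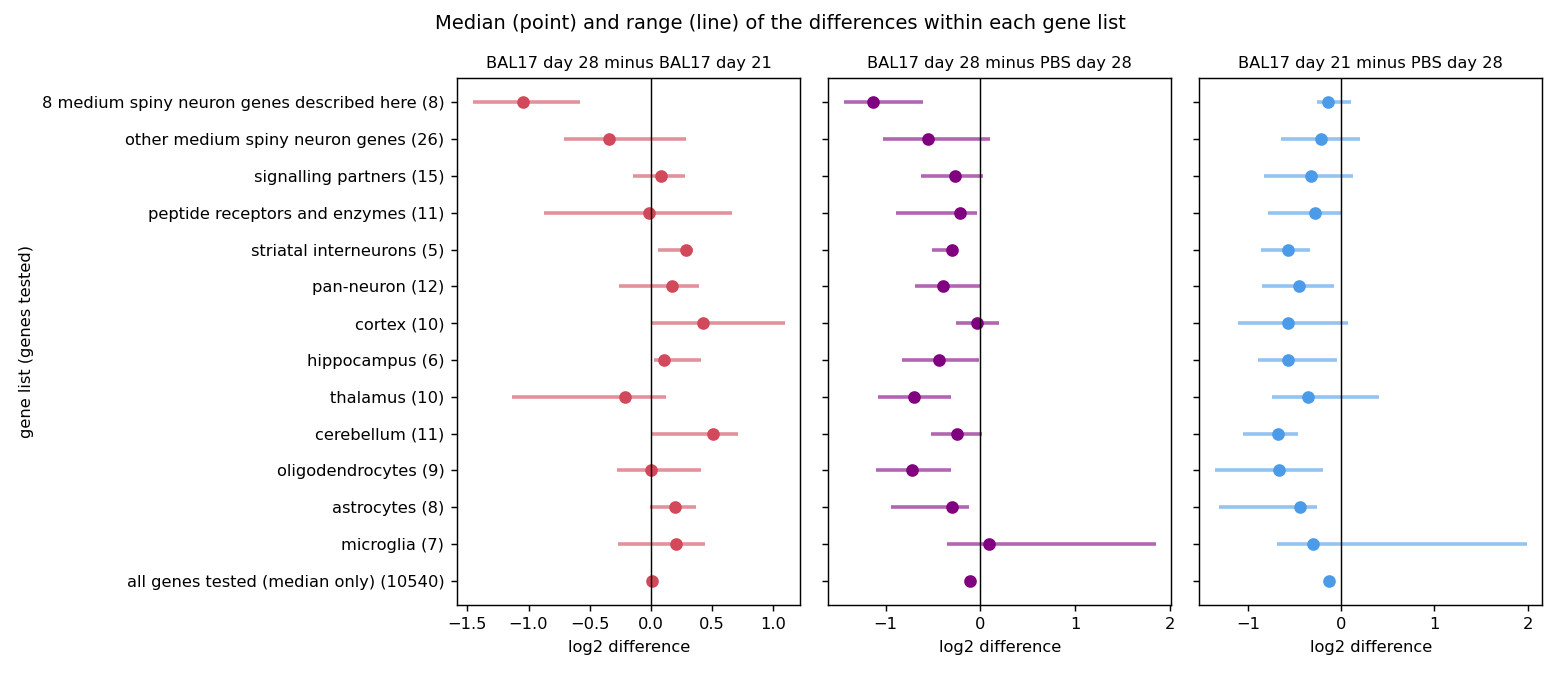
Median (points) and range (lines) of the log2 differences of the genes in each list, with the number of genes tested in brackets, for 3 comparisons of brain groups. The 8 medium spiny neuron genes have medians of -1.04, -1.13 and -0.15, and between day 28 and day 21 the cortical and cerebellar medians lie at 0.43 and 0.51.

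Direct and indirect classes were set against each other within each brain, as the mean of Drd1 and Tac1 minus the mean of Drd2, Penk and Gpr6. This difference was -0.72 ± 0.23 (SD, n = 5) in PBS brains, -0.74 ± 0.19 in BAL17 brains at day 21, -1.07 ± 0.15 at day 28 and -0.60 ± 0.24 in BAL17VII brains. The day 28 range, -1.28 to -0.90, overlapped the day 21 range, -0.94 to -0.49. Given the choice of genes it was not tested, and at day 28 Drd1, Drd2 and Gpr6 overlapped the level of cultured lymphoma cells.

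The genes most like the mean of the 8, by Pearson r over the 20 brains among 10532 other genes, were Pde1b (0.98), Mme (0.97), Pcp4l1 (0.96), Gng7 (0.95), Prkch (0.95), Nexn (0.95), Actn2 (0.94) and Rarb (0.93). Prkch is a protein kinase C, Nexn an actin-binding protein and Rarb a retinoic acid receptor. Centred on group means, Pde1b was again first (0.96), followed by Pcp4l1 (0.93), Nexn (0.92), Mme (0.92), Prkch (0.92), Rbms3 (0.91), Rarb (0.90) and Gng7 (0.90). Of the 8 genes by the first measure, Pde1b, Gng7, Actn2 and Rarb were on the list of other medium spiny neuron genes and Mme on the peptide list. Nexn averaged 9.26 in PBS brains, 8.84 at day 21 and 8.04 at day 28 in BAL17 brains, and Pcp4l1 averaged 10.14, 9.85 and 9.21.

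The cultured cells gave the level that the arrays read for these genes outside the brain. Over the 12 line arrays Tac1 ran from 3.74 to 4.95, Penk from 5.61 to 6.27 and Pde10a from 5.35 to 6.07, and all 20 brains lay above those ranges, as they did for Ppp1r1b (7.19 to 7.76). For 4 of the 8 genes the day 28 brains overlapped the range of the lines: Drd1 (6.20 to 7.30 in the lines), Drd2 (6.93 to 7.40), Rgs9 (5.86 to 6.79) and Gpr6 (6.24 to 6.72). At such levels the array may read background, so the day 28 differences of these 4 genes may understate a lower level. Whether lines and brains were normalized together is not given in the sources used here, which limits this comparison of levels. Between the lines, 3 of the 8 genes passed the filter and none was called by limma or had an unadjusted p under 0.05 (adjusted p = 0.494 for Drd1, 0.708 for Drd2 and 0.995 for Ppp1r1b), where 34.3% of 9948 genes were called.

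**Figure D5:**
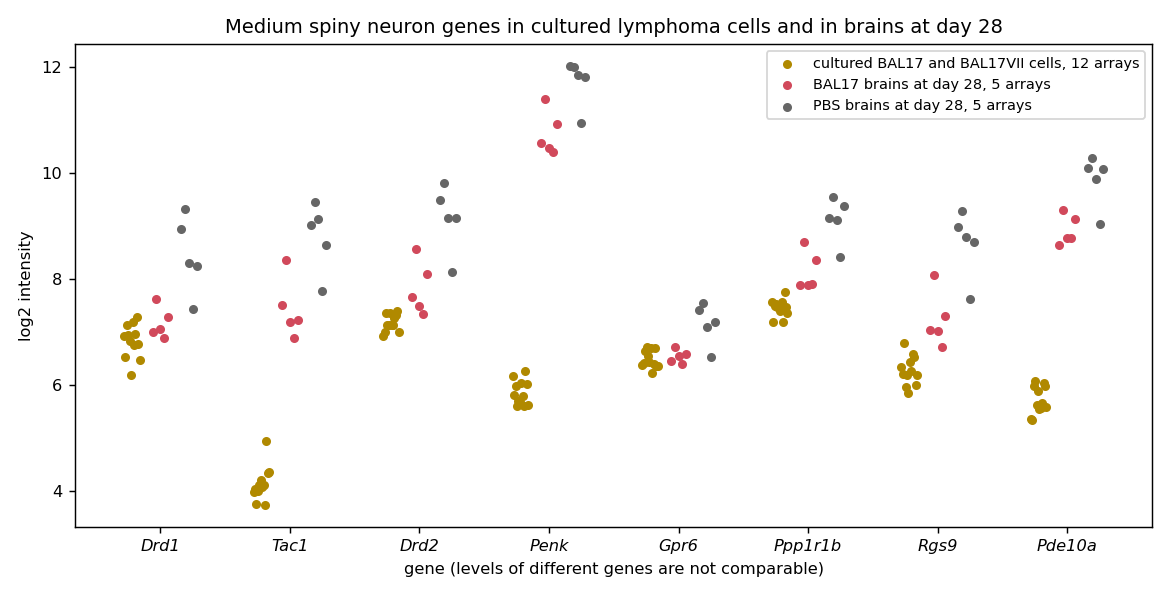
Log2 intensity of each gene in the 12 arrays of cultured BAL17 and BAL17VII cells (yellow), 5 BAL17 brains at day 28 (red) and 5 PBS brains (grey); each point is 1 array. The red points reach the yellow ones for Drd1, Drd2, Rgs9 and Gpr6 and stay above them for Tac1, Penk, Ppp1r1b and Pde10a.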

How the data were processed

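Intensities of 32 arrays were deposited; the submitters' processing notes name RMA and Affymetrix Expression Console as the tools, with no version. RMA corrects background, quantile-normalizes and combines the probes of a set. The deposited intensities were linear (2.72 to 17825), and log2 was taken here. There is no detection call and no read depth, so a dim probe set may still hold some signal, and the number of arrays limits the precision.

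Of 35556 probe sets, 21789 carried 1 gene symbol, 1621 several and 12146 none; 21698 of the first were found in the GRCm38.p6 gene table, used for names. Where a gene had several single-symbol probe sets, that with the highest mean over 32 arrays was used; each of the 8 measured genes had 1. Tested genes lay above the median single-symbol probe set of the array on at least 5 brain arrays (10540 genes) or 6 line arrays (9948 genes).

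Differences came from limma 3.58.1 in R 4.3.3, with group means, moderated variances and two-sided Benjamini-Hochberg adjustment over all genes tested; called means an adjusted p under 0.05. The 20 brains shared 1 fit and the 12 line arrays another. The script was tested on simulated data. The genes described, the other gene lists and the tests were chosen with earlier results of these data known. No p is given for the 8 genes where BAL17 brains are among the groups compared. Genes named from a list are the 3 with the smallest adjusted p in a comparison and Adcy5, Gnal, Bcl11b, Foxp1, Pdyn, Chrm4 and Chat, beside the 8 genes most like the mean of the 8 by each measure. Slc5a7 was named outside this rule. Alternatives were other normalizations, filters, array weights, moderation, a replicate block, fits of the 2 groups alone and leaving out each array. Same-numbered brains of different groups were checked for pairing and were not taken as pairs.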

Additional observations from a re-analysis of the deposited data

Results flagged for a closer look

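In groups of 5 or 6 arrays, 3 of the 48 gene and group combinations of the 8 genes held a sample whose gap to its nearest neighbour, divided by the group's range, passed Dixon's 95% critical value; chance gives about 1 in 20. Drd2 stood at 9.18 in BAL17 brain 2 at day 21, above the other 4 (8.78 to 8.85). Penk stood at 10.96 in PBS brain 4, below the other 4 (11.82 to 12.03). Ppp1r1b stood at 7.19 in cultured BAL17VII sample 2, below the other 5 of its line.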

How the results depend on the processing

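Over all alternatives run, the median difference of the 8 genes ran from -1.19 to -0.95 for day 28 against day 21 and from -1.35 to -0.99 for day 28 against PBS. It ran from -0.37 to 0.01 for day 21 against PBS (-0.37 to -0.02 on leaving out single brains), from -0.30 to 0.06 for BAL17VII against PBS and from -0.07 to 0.13 for BAL17VII against BAL17.

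Counts depended more on the setting. Between day 28 and day 21, the 2 called genes of the 26 other medium spiny neuron genes became 7 after quantile normalization, 1 with no filter, 8 with array weights, 9 with the 2 groups alone and 10 without PBS brain 4 and BAL17VII brain 4 (an alternative chosen after seeing the data). The 186 calls over all genes became 386, 122, 613 and 290 under the first 4 of these. Against PBS at day 28, a filter at the 75th percentile, which tests fewer genes, gave 11 in place of 18 of the list and 2082 in place of 3504 over all genes. At day 21 it gave 2912 over all genes in place of 5112, and the list's 7 became 13 without both brains numbered 4. For BAL17VII against PBS the list's 2 became 0 after quantile normalization, with no filter, with array weights and with the 2 groups alone, and 1 after median centring; the 581 calls over all genes became 343 with the stricter filter and 97 with the 2 groups alone. For BAL17VII against BAL17 the list's 1 became 2 after median centring, with no filter and with the stricter filter, 3 with array weights and with the 2 groups alone (1639 over all genes in place of 2847) and 6 without both brains numbered 4. Between the lines array weights gave 5 in place of 3. Unless a setting tests fewer genes or samples, the cause was not tested.

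Leaving out single samples gave 0 to 3 of the list and 44 to 285 over all genes for day 28 against day 21, 15 to 19 and 2546 to 3446 for day 28 against PBS, 4 to 12 and 4434 to 5611 for day 21 against PBS, 0 to 2 and 243 to 1280 for BAL17VII against PBS, 0 to 3 and 1747 to 3781 for BAL17VII against BAL17, and 2 to 4 and 3005 to 3311 between the lines. Differences near 0 changed sign: for BAL17VII against PBS, Drd2 was 0.0226 after quantile normalization and 0.0148 with array weights and ran from -0.255 to 0.224 on leaving out single brains, Drd1 from -0.313 to 0.158 and Penk from -0.0675 to 0.258. Between the lines Ppp1r1b was 0.0364 with array weights and ran from -0.0532 to 0.0587.

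Of 30 pairs of same-numbered brains of different groups, 11 had a correlation of deviations over 0.1 (range -0.41 to 0.56): all 6 pairs of brains numbered 4 (0.20 to 0.43) and 5 of the other 24. By mean correlation with the other groups, 7 of 20 brains were most like their own number, so numbers were not taken to pair samples. With the replicate number as a block (replicate block), 6 genes of the list were called between day 28 and day 21, 11 for day 21 against PBS and 2 for BAL17VII against BAL17. Spearman's rho in place of Pearson's r kept 5 of the 8 genes most like the mean of the 8. Signal near background limits Drd1, Drd2, Rgs9 and Gpr6 at day 28, whose values overlapped those of the cultured lines.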
